A study of Mus musculus with 6 samples.

Results

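The natriuretic peptide system of the neonatal mouse ventricle was followed through 8 genes: the peptide precursors Nppa, Nppb and Nppc, the receptors Npr1, Npr2 and Npr3, and the processing proteases Corin and Furin. They were chosen by symbol, and all 8 had a row among the 39171 genes of the deposited table. Poly(A) RNA had been sequenced from heart ventricles of wild-type mice of the outbred CD-1 stock, without surgery or treatment, at the age of 1 day (P1, 3 libraries) and 2 days (P2, 3 libraries). Values are FPKM, fragment counts divided by transcript length and by the size of the library, so levels of different genes can be set beside each other. The labels name 3 hearts per age and do not tie a library to an animal, so the p-values rest on the spread between samples, which may be technical.

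Atrial natriuretic peptide (ANP, from Nppa) and B-type natriuretic peptide (BNP, from Nppb) are hormones of heart muscle cells that promote salt and water excretion and relax blood vessels. In rodents Nppa is strongly expressed in the atria throughout life and in the ventricle mainly before and around birth, and both genes respond to wall stretch. C-type natriuretic peptide (CNP, from Nppc) is made chiefly by endothelial cells. Npr1 (also called NPR-A) is the receptor of ANP and BNP and Npr2 (NPR-B) that of CNP. Both make cyclic GMP, whereas Npr3 (NPR-C), well known from the endocardium, binds all 3 peptides and removes them. Corin, a membrane-bound protease of heart muscle cells, cleaves the ANP precursor, and the convertase Furin cleaves the precursors of BNP and CNP among many other substrates.

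None of the 7 genes tested passed between the ages, and Nppc was not tested. Of the 7 with a mean of at least 1 FPKM, which were tested by limma on log2(FPKM + 1), 0 reached a Benjamini-Hochberg adjusted p under 0.05, where 0.161% of all 13624 tested genes did. The log2 change, P2 minus P1, was below 0 for all 7, with values from -0.61 for Nppa to -0.04 for Npr2 and a median of -0.20, beside a median of 0.01 over all tested genes, of which 45.3% were below 0. All 7 were also below 0 under each other scaling, but 5 of 7 with an atrial marker covariate and 5 to 7 when 1 library was left out. An unadjusted limma p under 0.05 with a lower P2 level was found for Npr1, Corin and Furin, 3 of 7, against 7.89% of all tested genes. Every P2 library lay below every P1 library for Npr1 and Furin, 2 of 7, against 10.6% of all tested genes. No gene of the 7 had all P2 values above all P1 values, against 14.4%.

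**Figure D1:**
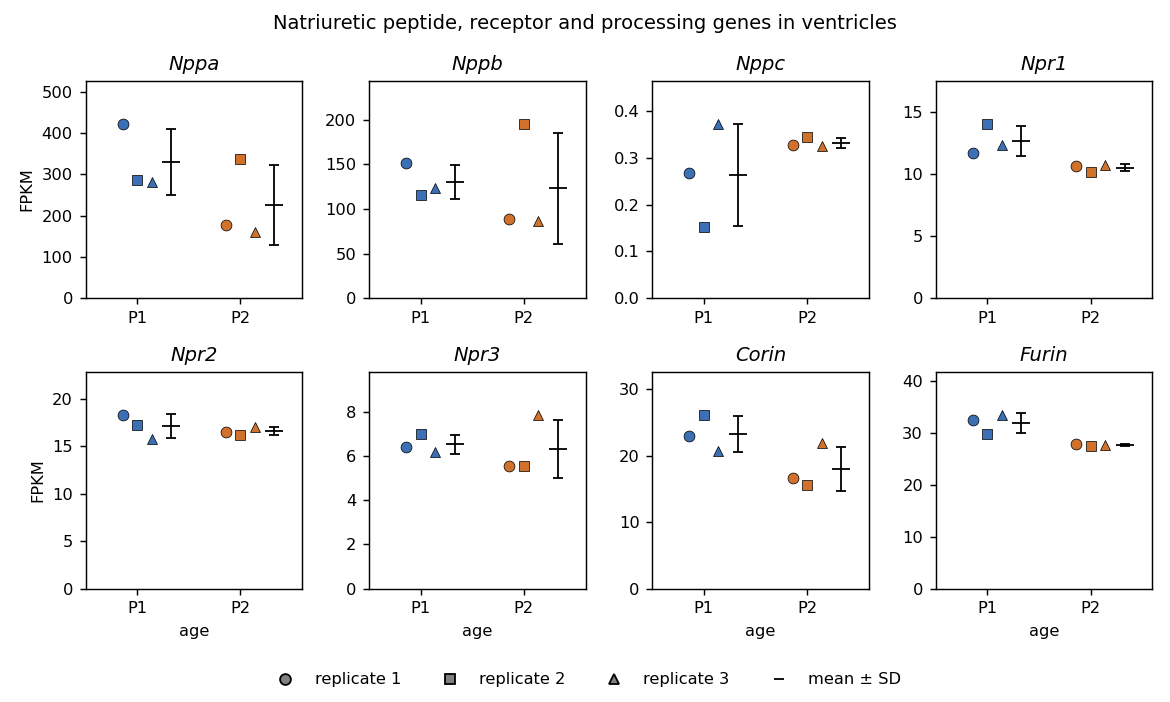
FPKM of the 8 genes in each library (vertical axes from 0, one scale per gene) at P1 and P2, with symbols for the replicate and bars for the mean ± SD of 3 libraries. Npr1 and Furin show no overlap between the ages, and P2 replicate 2 stands above the other P2 libraries for Nppa and Nppb.

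**Figure D2:**
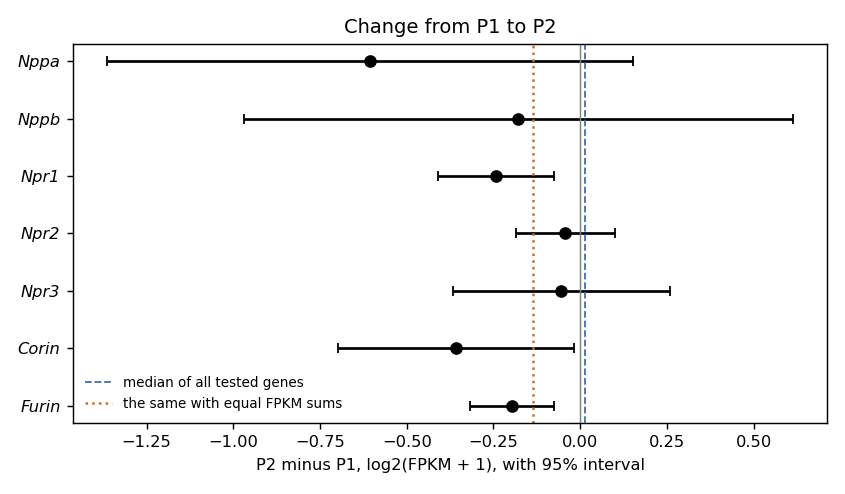
Difference in log2(FPKM + 1), P2 minus P1, of the 7 tested genes with its 95% interval from limma (horizontal axis). The dashed line is the median of all tested genes, 0.01, and the dotted line that median after rescaling to equal FPKM sums, -0.14. The intervals of Nppa and Nppb are the widest, and those of Npr1, Corin and Furin end below 0.

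The libraries were alike in the number of genes at or above 1 FPKM, 13355 to 13429. They differed in their FPKM sums, 716968 to 754510 in P1 and 807632 to 858436 in P2, and rescaling to equal sums moved the median difference over all genes from 0.01 to -0.14 on the log2 scale. Under that scaling Npr1, Corin and Furin were called lower in P2 by limma (Benjamini-Hochberg adjusted p = 0.0234, 0.0391 and 0.0248), where 17.6% of all tested genes were called lower and 0.286% higher. Over all alternatives the limma adjusted p ran from 0.0234 to 0.784 for Npr1, from 0.0391 to 0.962 for Corin and from 0.0248 to 0.812 for Furin. The ventricular markers Myl3, a myosin light chain, and the transcription factor genes Irx4 and Hey2 were present in every library (at least 3607, 33.4 and 35.7 FPKM). Myl2, the main ventricular light chain, was listed at 0 in all 6, where an exact 0 may be a failed estimate. Markers of atrial muscle summed to between 695 and 1115 FPKM in P1 and between 260 and 647 in P2, without overlap between the ages. The myosin light chain genes Myl7 and Myl4 made up most of each sum. Of the 10 markers 3 were lower and 0 higher in every P2 library, against 10.6% and 14.4% of all tested genes. Fewer cells of a type and less RNA per cell cannot be told apart in bulk tissue.

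Nppa and Nppb lie next to each other on mouse chromosome 4, in the same direction and 13516 bases apart. In the GENCODE M21 annotation of GRCm38, Nppb (ENSMUSG00000029019) spans 147985788 to 147987205 and Nppa (ENSMUSG00000041616) spans 148000722 to 148002079, both on the plus strand. The 250 bases before each RefSeq start site (GRCm38.p6) are shown because the levels of both genes were high and low together from library to library. They run from 147985650 to 147985899 for Nppb and from 148000472 to 148000721 for Nppa. In GENCODE M21 the Nppb gene begins inside its window. Capitals mark matches on either strand to GATAA, the core bound by GATA factors, AAGTG, bound by Nkx2-5, TCACAC, part of the T-box site, CATTCC, bound by TEAD factors, and TATAAA, the TATA box.
Nppa: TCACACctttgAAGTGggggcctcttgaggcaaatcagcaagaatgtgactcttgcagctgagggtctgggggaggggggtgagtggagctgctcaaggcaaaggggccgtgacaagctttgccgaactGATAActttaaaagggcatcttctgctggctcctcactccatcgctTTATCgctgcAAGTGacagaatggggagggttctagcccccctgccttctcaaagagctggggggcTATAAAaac
Nppb: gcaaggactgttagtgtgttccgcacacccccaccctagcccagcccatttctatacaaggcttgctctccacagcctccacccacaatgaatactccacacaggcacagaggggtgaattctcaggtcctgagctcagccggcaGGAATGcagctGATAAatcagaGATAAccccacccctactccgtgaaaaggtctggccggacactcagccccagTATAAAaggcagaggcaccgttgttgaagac

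Both windows held the GATA letters 2 times and the TATA letters 1 time. The GATA letters were found in 22.6% and the TATA letters in 12.4% of all 32851 RefSeq windows of this length. Only the Nppa window held the Nkx2-5 letters, 2 times (40.7% of all windows had at least 1 match), and the T-box letters, 1 time (12.3%). Only the Nppb window held the TEAD letters, in the reverse direction (12.6%). Neither held a CArG box, the site of serum response factor, which 1.47% of windows had. All 8 genes had at least 1 window, and only the 2 of Nppa and Nppb are shown. No 2 of these motifs overlapped in these windows, and a match is a description of letters, not a bound site.

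Nppa had the highest level of the 8 genes. It was at 421, 286 and 281 FPKM in P1 replicates 1 to 3. The P2 replicates, in the same order, were at 177, 336 and 160.4 FPKM. P2 replicates 1 and 3 lay below every P1 library, while P2 replicate 2 lay above 2 of the P1 libraries, so the ages overlapped. Nppa averaged 329 ± 79.2 FPKM at P1 and 225 ± 96.9 at P2 (SD over 3 libraries each). The difference on the log2 scale, -0.61 ± 0.31 (SE), did not pass (limma, Benjamini-Hochberg adjusted p = 0.353), and its 95% interval ran from -1.36 to 0.15. Without P2 replicate 2 the change was -0.94 and the limma adjusted p 0.227. Over the 6 ways of leaving out 1 library the change ranged from -0.94 to -0.40, and over all alternatives the limma adjusted p ran from 0.141 to 0.771.

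The level of Nppa carries a second uncertainty from an overlapping gene. Gm13054, an antisense gene annotated on the opposite strand, shares 532 bases of its exons with those of Nppa, which is 61.5% of the Nppa exonic bases and 64.9% of its own. The sources used here do not say whether fragments were assigned by strand, so reads of the 2 genes cannot be told apart in the shared stretch. Gm13054 was at 402, 277 and 286 FPKM in P1 replicates 1 to 3 and, in the same order, at 173, 328 and 149 FPKM in P2. Its value was between 0.930 and 1.02 times that of Nppa in every library. It was named after its values were seen. Its log2 change, -0.63 ± 0.31 (limma, Benjamini-Hochberg adjusted p = 0.340), was close to that of Nppa. The absolute level of Nppa is uncertain for this reason.

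Nppb was at 152, 115 and 124 FPKM in P1 replicates 1 to 3 and, in the same order, at 88.3, 195 and 86.4 FPKM in P2. P2 replicate 2 was the highest of all 6 libraries and the other P2 libraries the lowest. The means were 130.1 ± 19.2 FPKM in P1 and 123 ± 62.0 in P2, and the log2 change was -0.18 ± 0.33 (limma, Benjamini-Hochberg adjusted p = 0.798; 95% interval -0.97 to 0.61). It was -0.56 without P2 replicate 2, with a limma adjusted p of 0.234, where all alternatives gave 0.234 to 0.995. The sign of the change was positive without P2 replicate 1 (0.01) and without P2 replicate 3 (0.02).

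Nppa and Nppb were among the genes that varied most between replicates. Their residual SD on the log2 scale was 0.47 and 0.49, beside a median of 0.08 over all tested genes, and 3.41% and 3.30% of tested genes had a larger one. The ratio of the highest to the lowest library was 1.497 for Nppa and 1.32 for Nppb within P1. Within P2 it was 2.10 and 2.25. By contrast Furin had a residual SD of 0.06, which 71.3% of tested genes exceeded.

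The ratio of the 2 peptide genes separated the ages although neither level did. Within a library, which removes any scaling between libraries, Nppa was 2.77, 2.49 and 2.27 times as high as Nppb in P1 replicates 1 to 3. It was 2.01, 1.73 and 1.86 times as high in P2 replicates 1 to 3. The size of these ratios carries the uncertainty of the Nppa level from the overlap with Gm13054. Every P2 ratio lay below every P1 ratio, including that of P2 replicate 2. The log2 ratio was 1.32 ± 0.14 in P1 and 0.90 ± 0.11 in P2, a difference of -0.43 that ranged from -0.50 to -0.35 when 1 library was left out. The exact two-sided permutation test gave p = 0.10, the smallest that 3 against 3 libraries allow, and 0.40 after adjustment over the 4 ratios compared.

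Nppc, the CNP gene (ENSMUSG00000026241, chromosome 1 from 86666291 to 86670571, minus strand), was the lowest of the 8 genes and below 1 FPKM in every library. By mean level it ranked 15930th among the 39171 genes. It was at 0.267, 0.151 and 0.371 FPKM in P1 and at 0.327, 0.345 and 0.325 FPKM in P2. The ages overlapped, and the gene was below the filter of 1 FPKM and so was not tested. With no filter the log2 change was 0.08 ± 0.07 (limma, Benjamini-Hochberg adjusted p = 0.674).

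Among the receptors, Npr1, the guanylyl cyclase that answers to ANP and BNP, was lower in every P2 library. It was at 11.7, 14.0 and 12.3 FPKM in P1 replicates 1 to 3 and, in the same order, at 10.6, 10.2 and 10.7 FPKM in P2. The means were 12.7 ± 1.20 FPKM in P1 and 10.5 ± 0.285 in P2, and the ages did not overlap. The log2 change was -0.24 ± 0.07 (limma, Benjamini-Hochberg adjusted p = 0.173), with a 95% interval from -0.41 to -0.08. Leaving out 1 library moved it between -0.30 and -0.17, and the limma adjusted p stayed between 0.224 and 0.347. Npr1 (ENSMUSG00000027931) spans 90450591 to 90465866 on the minus strand of chromosome 3, where the antisense gene Gm16048 overlaps it at no more than 0.334 FPKM.

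Npr2, the CNP receptor, was at 18.3, 17.3 and 15.8 FPKM in P1 and at 16.6, 16.2 and 17.0 FPKM in P2. All 3 P2 values lay within the range of the P1 values. The log2 change was -0.04 ± 0.06 (limma, Benjamini-Hochberg adjusted p = 0.720), and its 95% interval ran from -0.19 to 0.10, the narrowest of the peptide and receptor genes tested. Npr2 (ENSMUSG00000028469) lies on chromosome 4 from 43631935 to 43651244 and overlaps the antisense gene Gm12473, at 1.16 to 2.07 FPKM.

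Npr3, the clearance receptor, was at 6.42, 6.99 and 6.16 FPKM in P1 replicates 1 to 3 and, in the same order, at 5.57, 5.53 and 7.86 FPKM in P2. P2 replicate 3 was the highest of the 6 libraries and the other P2 libraries the lowest, so the ages overlapped. The log2 change was -0.05 ± 0.13 (limma, Benjamini-Hochberg adjusted p = 0.8504). Without P2 replicate 3 it was -0.20, with a limma adjusted p of 0.264, where all alternatives gave 0.2315 to 0.984. Npr3 (ENSMUSG00000022206) spans 11839896 to 11907287 on the minus strand of chromosome 15.

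Summed levels of 8 endocardial markers, the cell type in which Npr3 is best known, were 85.6 to 94.97 FPKM in P1 and 84.0 to 93.0 in P2. Their ranges overlapped. Among the highest of them, the log2 change was -0.04 for Emcn, 0.13 for Cgnl1 and -0.26 for Plvap, none of which passed limma's test.

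The receptor ratios overlapped between the ages. Npr3 stood at 0.551, 0.4998 and 0.5004 times the level of Npr1 in P1 and at 0.524, 0.543 and 0.734 times in P2 (exact permutation p = 0.30, adjusted 0.40). Npr2 was 1.57, 1.24 and 1.28 times as high as Npr1 in P1 and 1.56, 1.59 and 1.59 times in P2 (exact permutation p = 0.20, adjusted 0.40). The Npr2 to Npr1 ratio of P1 replicate 1 lay within the range of the P2 libraries, while the other P1 libraries were lower.

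**Figure D3:**
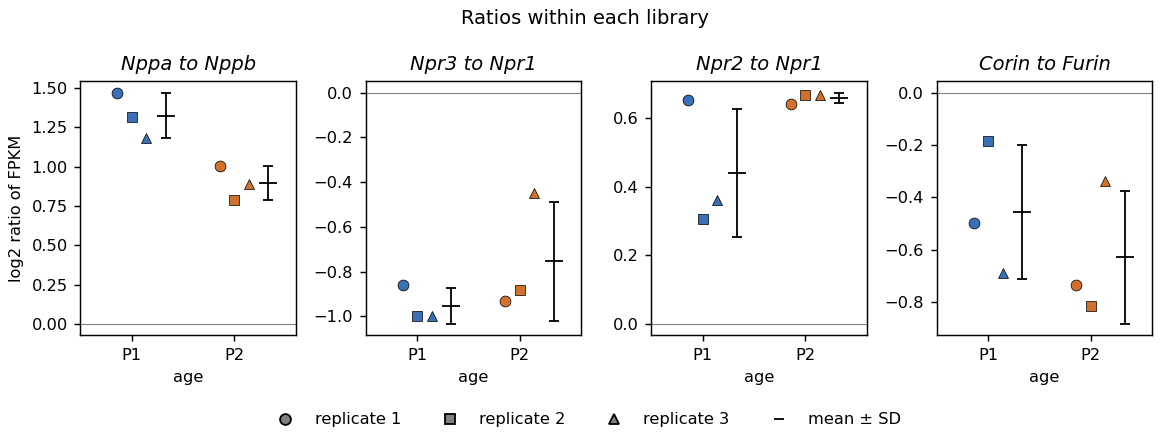
Log2 ratio of FPKM between 2 genes of the same library (vertical axes, one scale per pair) at P1 and P2, with symbols for the replicate and bars for the mean ± SD of 3 libraries. The Nppa to Nppb ratio separates the ages without overlap, and the other 3 ratios overlap.

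Corin, which cleaves the ANP precursor, was at 22.9, 26.1 and 20.7 FPKM in P1 replicates 1 to 3. In P2 replicates 1 to 3 it was at 16.7, 15.6 and 21.9 FPKM. P2 replicates 1 and 2 lay below every P1 library and P2 replicate 3 lay within the P1 range. The means were 23.3 ± 2.71 and 18.05 ± 3.34 FPKM, and the log2 change was -0.36 ± 0.14 (limma, Benjamini-Hochberg adjusted p = 0.254; 95% interval -0.70 to -0.02). Corin (ENSMUSG00000005220) spans 72300025 to 72504473 on the minus strand of chromosome 5.

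Furin was at 32.4, 29.7 and 33.4 FPKM in P1 and at 27.8, 27.4 and 27.6 FPKM in P2. The ages did not overlap, and the P2 libraries were within 1.02 times of each other. The means were 31.8 ± 1.93 and 27.6 ± 0.217 FPKM, and the log2 difference was -0.20 ± 0.05 (limma, Benjamini-Hochberg adjusted p = 0.154; 95% interval -0.32 to -0.08). This was the smallest p of the 7 peptide system genes tested, and it ranked 642nd among the 13624 tested genes. Furin (ENSMUSG00000030530) spans 80388585 to 80405436 on the minus strand of chromosome 7. The Corin to Furin ratio ranged from 0.621 to 0.881 in P1 and from 0.569 to 0.791 in P2 (exact permutation p = 0.50, adjusted 0.50).

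The order of the mean levels was Nppa, Nppb, Furin, Corin, Npr2, Npr1, Npr3 and Nppc, from 277 to 0.298 FPKM. This order held in all 6 libraries except between Corin and Npr2, whose ratio ran from 0.964 to 1.51 and was above 1 in 5 of the 6. The widest steps were those from Nppb to Furin, 3.13-fold to 7.12-fold, and from Npr3 to Nppc, 16.0-fold to 46.2-fold. Nppa ranked 275th among all genes of the table by mean level and Nppb 596th.

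Libraries with high Nppa also had high Nppb. With each gene centred on its own mean log2 value over the 6 libraries, the root mean square difference between Nppa and Nppb was 0.24, against a spread of 0.49 for Nppa and 0.41 for Nppb themselves. Of 13623 other tested genes, Nppb was the 4th closest to Nppa, after Gm13054 at 0.04 in the 1st place. Among genes with full names, Il34, a cytokine gene, and Vis1 came next, at 0.26 each and with levels under 3 FPKM. Acta1, the skeletal alpha-actin gene of the fetal and stretched heart, was the 8th closest.

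The closest named genes to Nppb were Ifit2 (0.18) and Ifit1bl1 (0.21), members of an interferon-induced family, and Fbp2 (0.19), the muscle fructose bisphosphatase. Nppa came 6th, Acta1 7th and Ankrd1, the stretch-responsive cardiac ankyrin repeat gene, 8th. To Nppa, however, Ankrd1 was only the 182nd closest, at 0.39. For Npr3 the closest named genes were Abraxas1, Rpap2 and Trp53bp1, at 0.05 each. With 6 libraries and this many genes, close patterns are a description.

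P2 replicate 2 was the library in which both peptide genes stood above the other P2 libraries. The other 5 tested genes of the peptide system (Npr1, Npr2, Npr3, Corin and Furin) were lowest of the P2 libraries there. This is 71.4% of the 7, against 26.6% of all tested genes. Some of these differences were small. Npr3 was at 5.53 FPKM there, beside 5.57 in P2 replicate 1, and Furin at 27.4, beside 27.6 in P2 replicate 3. Ankrd1 was at 404 FPKM there, beside 253 and 268 in P2 replicates 1 and 3 and 294 to 326 in P1. Acta1 was at 55.6 FPKM there, beside 41.8 and 35.8, with 67.1, 44.7 and 42.6 in P1. Of 16 tested genes of the stretch and fetal programme list, 10 were highest in P2 replicate 2 among the P2 libraries, or 62.5%, against 43.7% of all tested genes. Another 3 of the 16 were lowest there, or 18.75%, against 26.6% of all tested genes. This library, Acta1 and Ankrd1 were singled out after their values were seen.

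Of the 10 atrial markers, 7 were lowest in P2 replicate 2 among the P2 libraries, or 70%, against 26.6% of all tested genes. The same held for 6 of 7 fibroblast markers (85.7%) and 6 of 9 genes of precursor processing and secretion (66.7%), and Kcna5, an atrial potassium channel gene, was highest there. Myl7, the atrial myosin light chain, was at 471, 314 and 411 FPKM in P1 and at 199, 103 and 369 in P2 replicates 1 to 3. Sln, the atrial calcium pump regulator sarcolipin, was at 48.5, 27.6 and 37.4 FPKM in P1 and at 17.6, 5.76 and 40.5 in P2. Both were lowest in P2 replicate 2, the P2 library with the highest Nppa. P2 replicate 3 had the highest Myl7 and Sln of the P2 libraries and the lowest Nppa of all. Myl4, the atrial essential light chain, was at 554, 317 and 251 FPKM in P1 and at 146, 119 and 199.7 in P2. In P1 replicate 1, Nppa (421 FPKM), Myl7, Sln and Myl4 were each at their highest of all libraries. The atrial markers Nr2f2 and Kcna5 were at their lowest of all libraries there.

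**Figure D4:**
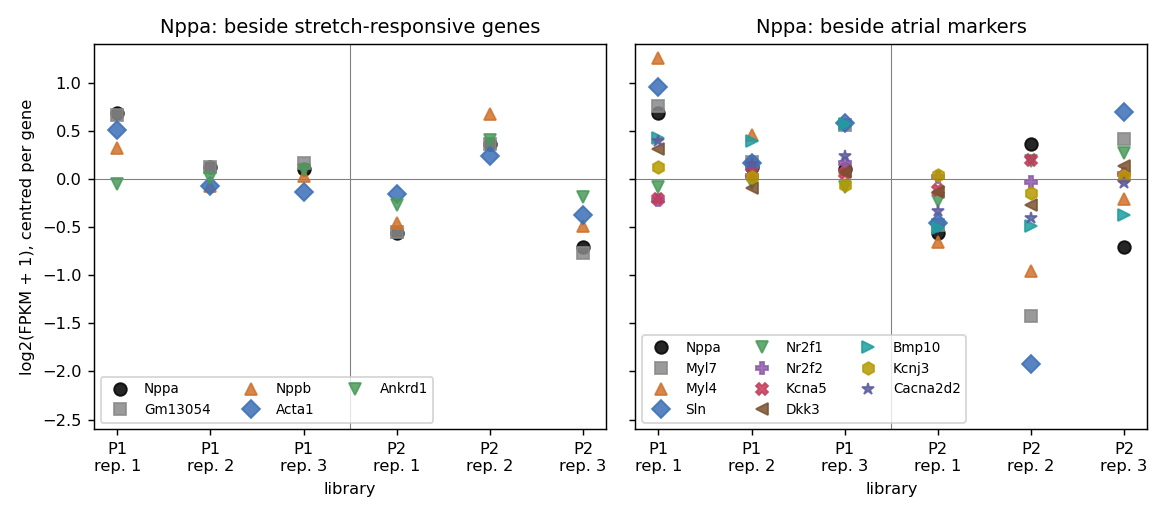
Log2(FPKM + 1) of each gene centred on its own mean (vertical axis) in the 6 libraries (horizontal axis), for Nppa with its antisense gene Gm13054, Nppb, Acta1 and Ankrd1 on the left and with the 10 atrial markers on the right. In P2 replicate 2 Nppa stands with Nppb, Acta1 and Ankrd1 above its mean, while the atrial markers other than Kcna5 and Nr2f1 lie below theirs. In P1 replicate 1 Nppa, Myl7, Myl4 and Sln are each at their highest, and Nr2f2 and Kcna5 at their lowest. Ankrd1 is the lowest of its P1 values there. Acta1 and Ankrd1 were picked after their values were seen.

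Of the 10 atrial markers 7 had a log2 change below 0 and 1 was called, the growth factor gene Bmp10 (-0.92 ± 0.08; limma, Benjamini-Hochberg adjusted p = 0.0306). This call was lost with the replicate block (limma adjusted p = 0.191), with the atrial covariate (0.615) and with any 1 library left out (0.0640 to 0.144), where the change of Bmp10 ran from -0.97 to -0.84. The atrial covariate includes Bmp10 itself, so that fit cannot check its call. The log2 change was -0.998 for Myl7, -1.22 for Myl4 and -1.13 for Sln, with limma adjusted p from 0.165 to 0.4002. With the mean log2 level of the 10 markers as a covariate, the change of Nppa was -1.11 ± 0.45 (limma, Benjamini-Hochberg adjusted p = 0.771) and that of Nppb -0.78 ± 0.45 (0.822). Npr1 kept a change of -0.26 ± 0.12 and Furin one of -0.16 ± 0.09 in that fit, with limma adjusted p of 0.784 and 0.812. Corin had a change of -0.08 ± 0.18 there (limma adjusted p = 0.962). The marker level was 3.93 to 4.17 in P1 and 3.27 to 3.895 in P2 on the log2 scale, without overlap, so age and atrial marker level cannot be fully told apart.

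The protein-coding genes directly beside the pair of peptide genes, Clcn6 and 2510039O18Rik, overlapped between the ages. Clcn6, a chloride transporter gene 2179 bases beyond Nppa, was at 9.85 ± 0.751 FPKM in P1 and 9.30 ± 0.347 in P2. The gene 2510039O18Rik, 38473 bases before Nppb, was at 16.9 ± 0.369 and 16.4 ± 0.593 FPKM. Their log2 changes were -0.07 and -0.03 and did not pass limma's test. Of 7 tested genes listed around the pair, 1 was higher in every P2 library, against 14.4% of all tested genes, and 0 were lower in every one. That 1 gene was Agtrap, which encodes a protein bound to the angiotensin receptor. It was at 10.5, 8.74 and 8.91 FPKM in P1 and at 10.9, 11.8 and 11.8 in P2, higher in every P2 library (log2 change 0.27 ± 0.08; limma, Benjamini-Hochberg adjusted p = 0.172).

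The rest of the pathway was read from 6 lists with 95 genes in the table, of which 76 were tested and 0 called in either direction. At an unadjusted limma p under 0.05, 11 of the 76 were higher in P2 and 9 lower, against 10.7% and 7.89% of all tested genes. The 3 genes of smallest limma p in each list are named below, a choice that favours genes that separate the ages. Of 15 genes of precursor processing and secretion 9 were tested, with 3 changes above and 6 below 0 and a median of -0.06. Pcsk6, the convertase that activates corin, was at 8.96 ± 0.461 FPKM in P1 and 11.7 ± 1.00 in P2, with every P2 library higher (log2 change 0.35 ± 0.07; limma, Benjamini-Hochberg adjusted p = 0.122). Pam, the peptide-amidating enzyme abundant in atrial granules, was at 365 ± 13.6 and 282 ± 32.1 FPKM, with every P2 library lower (-0.38 ± 0.08; limma adjusted p = 0.136). Scg5, a chaperone of a secretory convertase, was at 1.48 ± 0.158 and 0.963 ± 0.234 FPKM. Of the 9 tested genes, 3 were lower and 2 higher in every P2 library, against 10.6% and 14.4% of all tested genes.

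Among 7 tested genes of peptide degradation, 4 changes were above and 3 below 0, with a median of 0.03. Mme, which encodes neprilysin, the main protease of the peptides, was at 1.26 ± 0.170 FPKM in P1 and 1.61 ± 0.337 in P2, with overlap (log2 change 0.20 ± 0.12; limma, Benjamini-Hochberg adjusted p = 0.437). Ide, the insulin-degrading enzyme, was at 46.4 ± 1.54 and 48.2 ± 1.89 FPKM, and the protease gene Fap at 2.65 ± 0.206 and 3.54 ± 0.804.

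Downstream of the receptors, 10 genes of cyclic GMP synthesis and effectors were tested, with 6 changes above and 4 below 0 and a median of 0.07. Prkg1, the cyclic GMP-dependent protein kinase, was at 5.15 ± 0.301 FPKM in P1 and 6.02 ± 0.218 in P2, without overlap (log2 change 0.19 ± 0.06; limma, Benjamini-Hochberg adjusted p = 0.174). Pln, the calcium pump regulator phospholamban, was at 1690 ± 71.6 and 1992 ± 39.4 FPKM, also without overlap (0.24 ± 0.05; limma adjusted p = 0.127). Mrvi1, a substrate of that kinase in smooth muscle, was lower in every P2 library, at 4.29 ± 0.452 and 3.27 ± 0.275 FPKM. Of the 10 tested genes, 4 were higher and 1 lower in every P2 library, against 14.4% and 10.6% of all tested genes.

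All 12 tested phosphodiesterase genes, whose products break down cyclic nucleotides, had a log2 change above 0, from 0.04 to 0.38 with a median of 0.08, and 0 were called. This direction depended on scaling, since 3 were above and 9 below 0 with equal FPKM sums (median -0.07, beside -0.14 for all genes). Pde3b was at 2.52 ± 0.565 FPKM in P1 and 3.55 ± 0.267 in P2 (log2 change 0.38 ± 0.12; limma, Benjamini-Hochberg adjusted p = 0.202). Pde10a was at 1.23 ± 0.135 and 1.64 ± 0.0977 FPKM. Pde5a, which is selective for cyclic GMP, was at 2.84 ± 0.0775 and 3.16 ± 0.119 FPKM. These 3 had the smallest limma p of the list, the rule by which they were named. Of the 12, only they were higher in every P2 library, against 14.4% of all tested genes.

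Of 22 tested transcription factor genes linked to the peptide promoters, 11 changes were above and 11 below 0, with a median of 0.00. Gata4 was at 99.1 to 106 FPKM in P1 and 99.8 to 112 in P2, and Nkx2-5 at 46.6 to 51.0 and 48.95 to 55.8, both with overlap. Klf13, a Krüppel-like factor, was at 12.7 ± 1.34 and 10.2 ± 0.401 FPKM (log2 change -0.29 ± 0.08; limma, Benjamini-Hochberg adjusted p = 0.167). Mef2c, a muscle transcription factor gene, was at 19.7 ± 1.53 and 22.9 ± 0.483 FPKM, and Tbx20, a T-box factor gene, at 111 ± 2.99 and 124 ± 6.16. These 3 genes, named for the smallest limma p of the list, did not overlap between the ages. Of the 22, 4 were lower and 3 higher in every P2 library, against 10.6% and 14.4% of all tested genes.

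In the stretch and fetal programme list 16 genes were tested, 10 above and 6 below 0, with a median of 0.07 (-0.08 with equal FPKM sums). Xirp2, an actin-binding protein gene of the intercalated disc, was at 2.01 ± 0.346 FPKM in P1 and 3.06 ± 0.402 in P2 (log2 change 0.43 ± 0.12; limma, Benjamini-Hochberg adjusted p = 0.167). Its relative Xirp1 was at 64.1 ± 2.38 and 58.6 ± 2.03 FPKM, and the immediate early gene Egr1 at 6.48 ± 0.384 and 5.45 ± 0.556. Acta1 and Ankrd1 had log2 changes of -0.20 ± 0.22 and -0.04 ± 0.18 (limma, Benjamini-Hochberg adjusted p = 0.656 and 0.936).

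**Figure D5:**
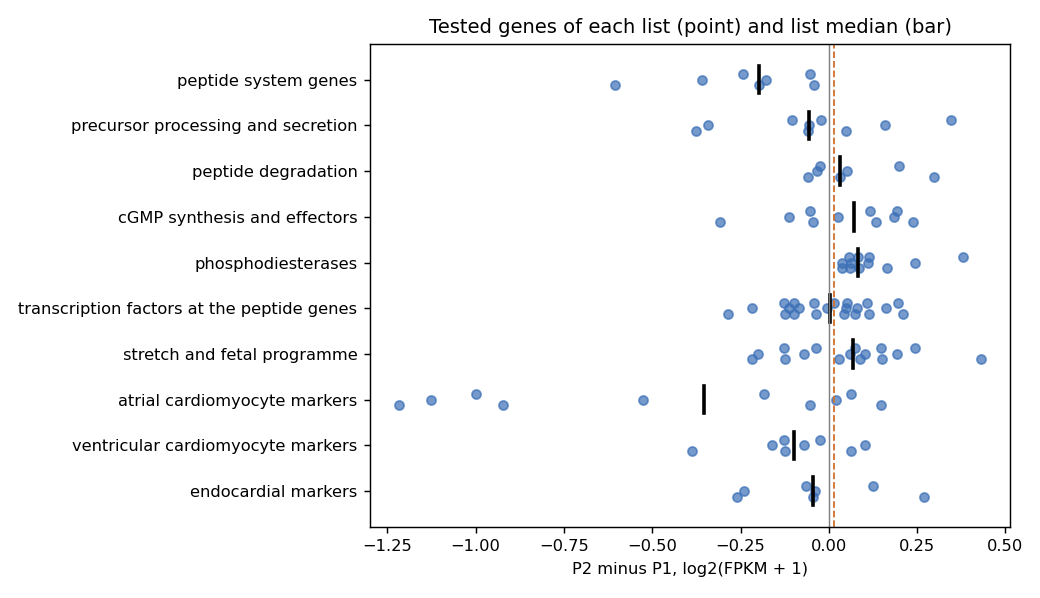
Difference in log2(FPKM + 1), P2 minus P1 (horizontal axis), of each tested gene (points) in the natriuretic peptide system, the 6 pathway lists and 3 marker lists, with the list median as a black bar. The dashed line is the median of all tested genes, 0.01. The 7 peptide system genes all lie below 0, the 12 phosphodiesterase genes all above it as deposited (3 of 12 above with equal FPKM sums), and the atrial markers reach the lowest values.

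Ventricular markers summed to 4118 to 4346 FPKM in P1 and 4262 to 4494 in P2, with 0 of 8 tested genes called. Myl3 made up most of each sum. Of the 8 tested, 6 had a change below 0, and all 8 did with equal FPKM sums. In every P2 library 2 of them were lower and 1 higher, against 10.6% and 14.4% of all tested genes. The highest ones besides Myl3 were Myh7, the slow myosin heavy chain gene (log2 change -0.07), and Lrrc10 (-0.39). Endothelial markers, from cells that carry Npr1, summed to 1264 to 1335 and 1313 to 1386 FPKM, with Fabp4, Cd36 and Egfl7 the highest (0.08, -0.03 and 0.07). Of the 8 endothelial markers 7 had a change above 0 and 5 were higher in every P2 library, against 14.4% of all tested genes. At an unadjusted limma p under 0.05, 4 of the 8 were higher, against 10.7% of all tested genes. With equal FPKM sums, however, 1 was above and 7 below 0. Fibroblast markers summed to 752 to 868 and 850 to 931 FPKM, with Col1a2, Dcn and Col1a1 the highest (-0.02, 0.35 and -0.10). Of the 7 fibroblast markers 5 were above 0. At an unadjusted limma p under 0.05, 3 of them, with Dcn, were higher in P2, against the same 10.7%. With equal FPKM sums 3 fibroblast markers were above and 4 below 0. Smooth muscle and pericyte markers summed to 442 to 595 and 465 to 487 FPKM, led by Acta2, Rgs5 and Tagln (-0.27, 0.37 and 0.05).

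Epicardial markers summed to 39.8 to 44.0 FPKM in P1 and 29.7 to 37.3 in P2, with Upk3b, Msln and Wt1 the highest (log2 changes -0.33, -0.41 and -0.05). All 6 were below 0, also with equal FPKM sums. At an unadjusted limma p under 0.05, 4 of them were lower in P2, against 7.89% of all tested genes. Leukocyte markers summed to 19.4 to 21.7 and 18.3 to 19.9 FPKM, led by C1qa, Csf1r and Cd68 (-0.07, -0.16 and 0.08). Erythroid markers summed to 961 to 1358 and 754 to 952 FPKM, led by Hbb-bs, Hba-a1 and Hbb-bt (-0.25, -0.31 and -0.66), with all 5 tested genes below 0. At an unadjusted limma p under 0.05, 3 of these 5 were lower in P2, against the same 7.89%. In these 7 lists and the endocardial list 0 genes were called. The part of these shifts in the values of the peptide system genes was not tested, apart from the fit with the atrial markers.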

How the data were processed

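The authors deposited 1 table of FPKM values for 39171 Ensembl mouse genes in 6 libraries, and all columns were used as deposited. Per the submitters' processing notes, the tools included TopHat2, Cuffdiff 2.2.1 and R 3.2. The sources used here give no build, annotation, filter, strand setting or scaling between libraries. FPKM values hold no counts, so absolute depth is unknown. Among values under 0.05 FPKM, that of 1 fragment relative to P1 replicate 1 was 0.935 to 1.10, over ratios kept between 0.8 and 1.25 only.

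Symbols came from GENCODE M21 (37605 genes matched, 1566 not), and Pde2a was not analysed here. Groups came from the sample titles. The test was limma 3.58.1 (R 4.3.3) on log2(FPKM + 1) with a variance trend, over 13624 genes averaging 1 FPKM or more, Benjamini-Hochberg adjusted, two-sided, called under 0.05. The steps were tested on simulated data. Changes on this scale understate those of low genes. Ratios within a library were tested by exact permutation (scipy 1.17.1), adjusted over 4. The 8 genes, the lists and the tests were chosen with earlier results of these data known. The rule named all 8 genes, their neighbours, called pathway genes or else the 3 of smallest p per list, the 3 highest markers per cell type, and the 3 closest named genes to Nppa, Nppb and Npr3. Gm13054, Gata4, Nkx2-5, Acta1, Ankrd1, Bmp10, Kcna5, Nr2f1, Nr2f2, Agtrap, Irx4, Hey2 and Myl2 were named besides these, after their values were seen. Alternatives were another pseudocount, filters, scalings and weights, no trend, a replicate block, an atrial covariate, another threshold and each library left out.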

Additional observations from a re-analysis of the deposited data

How the results depend on the processing

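Without any filter, with a pseudocount of 0.1, a filter of 5 FPKM, median ratio or quantile scaling, no variance trend, library weights, the replicate block, the atrial covariate, a threshold of 0.10 or any 1 library left out, 0 of the 8 genes and 0 genes of the 6 pathway lists were called by limma. With equal FPKM sums 3 of the 8 genes (Npr1, Corin and Furin) and 15 pathway genes were called, all of them lower. Calls over all genes, 22 as reported, were 40 with a pseudocount of 0.1, 41 with a filter of 5 FPKM, 2433 with equal FPKM sums, 14 with no variance trend, 2 with the atrial covariate, 104 at a threshold of 0.10, and 5 to 25 when 1 library was left out, lowest without P1 replicate 1 or 2. The log2 change of Npr2 was 0.029 and that of Npr3 0.23 with the atrial covariate, and the cause was not tested. When 1 library was left out, the change ranged from -0.56 to 0.021 for Nppb, from -0.10 to 0.0032 for Npr2 and from -0.20 to 0.020 for Npr3. Same-numbered replicates showed no clear pairing, with correlations of their deviations of -0.01, 0.10 and 0.01, beside -0.075 to 0.070 for other pairs. This check cannot exclude a pairing. With the replicate number as a block 5 genes were called. The change in the log2 ratio of Nppa to Nppb kept its sign throughout. Counting precision is unknown without counts, and 3 libraries per age cannot take a single exact test below 0.10.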
